A study of Mus musculus with 6 samples.

Results

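Liver transcripts of Optn knockout mice were compared with those of wild-type mice, all 4 of them 6 h after an intraperitoneal dose of acetaminophen. The comparison used the 4 treated libraries of 6 in the series and the 11652 of 55385 genes (21% of the table) whose mean FPKM (fragments per kilobase of transcript, scaled to the size of the library) over these 4 was at least 0.5. Fam118a, whose mean was 0.5002 FPKM, lay just inside this minimum and Rad50 (0.499994) just outside it, and 288 genes lay between 0.5 and 0.55 FPKM against 346 between 0.45 and 0.5. The mice were C57BL/6 and 6 weeks old. The knockouts (Optn-/-, replicates 4 and 5) and 2 of the wild types (replicates 1 and 4) received 500 mg/kg acetaminophen, and the other wild types (controls, replicates 3 and 6) had 200 µL of buffered saline (PBS) instead, also for 6 h. The labels do not say how the knockout allele was made, in which cells it acts or whether the wild types were littermates. Saline-treated knockouts were not analysed here, so a difference present before the drug and a different response to it cannot be told apart. The series' title names activation of mitophagy by optineurin in acetaminophen injury as its subject, and the present comparison asks what the liver transcriptome looks like without the gene.

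Optineurin is an autophagy receptor that binds ubiquitin chains on damaged mitochondria or bacteria and, through LC3-family proteins, brings them into the forming autophagosome. The kinase TBK1 binds and phosphorylates it. Acetaminophen is oxidised to a reactive quinone imine by cytochrome P450 enzymes, mostly in hepatocytes around the central vein, and the protein adducts formed in mitochondria start the injury. Fatty acids are handled in the same cells by mitochondrial and peroxisomal oxidation, with omega-hydroxylation by the CYP4A enzymes of the endoplasmic reticulum as a side route, and much of this programme is switched on by the nuclear receptor PPAR-alpha.

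Each of the 4 treated libraries held between 62.5 M and 77.3 M counts, and the controls 59.1 M and 75.9 M. Hepatocyte genes dominated every library, with albumin (Alb) at 26265 to 39152 FPKM. Traces of other tissues, however, did not follow the labels. Of 22 skeletal muscle genes, 20 were below 0.5 FPKM in at least 1 library, and these 20 summed to 86.5 and 93.9 CPM (counts scaled to the library total) in wild-type replicates 1 and 4 and to 118 in control replicate 3, against 10.3 and 12.7 in the knockouts and 10.9 in control replicate 6. The reverse held for 21 intestinal genes chosen in the same way, at 20.1 and 32.8 CPM in the knockouts and 18.4 in control replicate 6, against 0.24 and 0.34 in the wild types and 0.20 in control replicate 3. Defining muscle markers such as Ckm and Myh4 had 0 FPKM in both knockouts, and of the 21 intestinal genes 18 and 16 had no count in the treated wild types. Wild-type replicate 4 alone also held neural transcripts, with 20 neuron genes at 207 CPM against 3.31 to 10.9 in the other 5 libraries, 12 glial genes at 92.6 against 4.88 to 11.6, and 15 hypothalamic and pituitary genes at 38.9 against 0.11 to 0.58. Both treated groups thus lay wholly in 1 set each, the wild types with control replicate 3 and the knockouts with control replicate 6, and only the controls divided the sets. None of the genes past the threshold below belonged to a trace list. The labels name no batch. A fit with the set as a term was run, but that term rests on control replicate 6 against control replicate 3, 1 mouse each. It cannot separate the set from a difference between these mice, so the part of the sets in the results was not tested. The values of this fit stand beside the called genes and beside most of the cell type lists, where they carry that control difference.

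**Figure D1:**
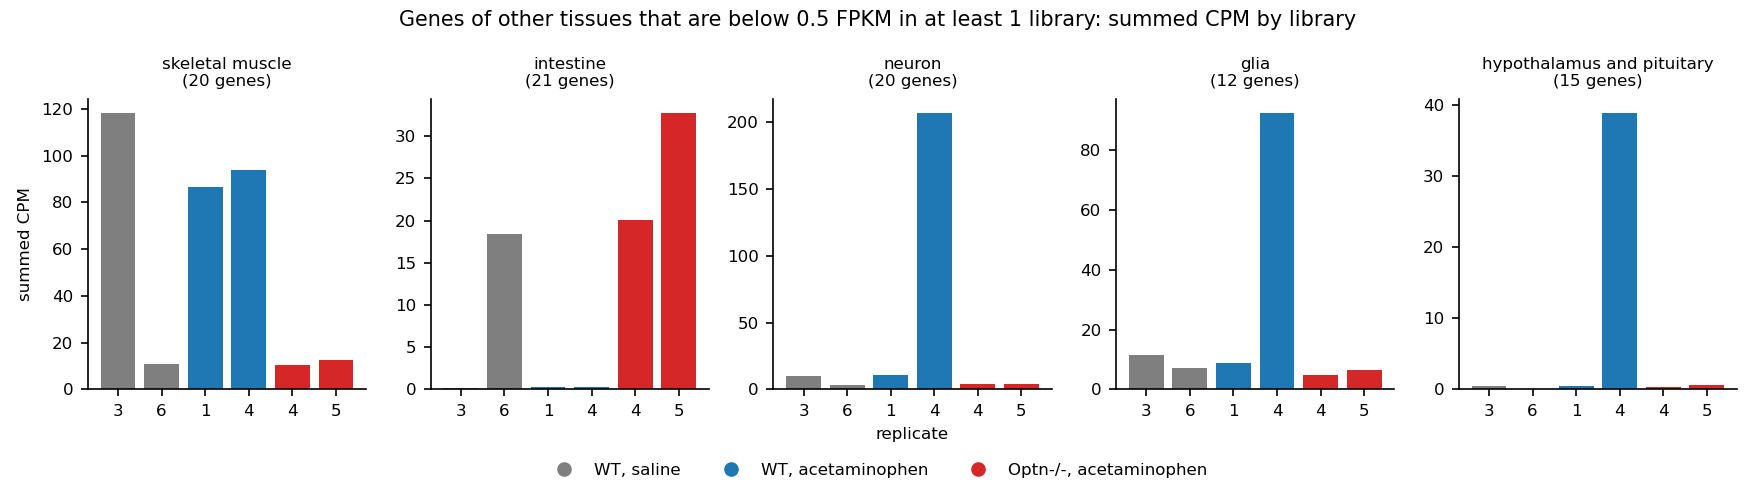
Summed CPM (vertical axis) of genes of 5 other tissues in each library (horizontal axis, replicate number), for list members below 0.5 FPKM in at least 1 library. Muscle genes stand out in control replicate 3 and both treated wild types, intestinal genes in control replicate 6 and both knockouts, and neural genes in treated wild-type replicate 4.

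Only 12 genes passed the threshold between treated knockout and treated wild-type livers, 6 higher (0.0515% of genes tested) and 6 lower (0.0515%). The rises were the omega-hydroxylases Cyp4a10 and Cyp4a14, Tmem170b, Rab30 and 2 copies of the U1 small nuclear RNA. The falls were Optn itself, Larp4, Sec22c and 3 entries that are copies of other genes, Tpm3-rs7, Rps3a2 and Gm10774. The test was edgeR's quasi-likelihood test on counts with Benjamini-Hochberg adjustment and a threshold of 0.05. Over all genes the median log2 fold change (knockout minus wild type) was -0.0012, and 749 genes (6.43%) differed by more than 2-fold. Without adjustment, 574 genes (4.93%) were higher and 453 (3.89%) lower at p under 0.05. In 2442 genes (21%) both knockout libraries lay above both wild-type libraries, and in 2221 (19.1%) below. These shares, and the list counts without overlap, used counts scaled to the library total times edgeR's TMM factor. That factor was 0.927 in wild-type replicate 1 and 0.988 in knockout replicate 5. Some genes counted as not overlapping therefore overlap in FPKM, such as Arg1 with 448 and 488 against 368 and 469. With 2 mice a group, the common biological coefficient of variation was 0.285, and the calls depended on single libraries. There were 2 rises and 4 falls without wild-type replicate 1, 3 and 4 without wild-type replicate 4, no rise and 1 fall without knockout replicate 4, 1 and 4 without knockout replicate 5, and 15 and 10 without either 1 of the controls. Of the 12 genes 4, 4, 0, 3, 10 and 10 were among these calls in turn. With the library set fitted only 1 gene, an Nnt entry, passed, and none of the 12 did. That fit had 2 residual degrees of freedom rather than 3. In it all 12 kept their direction. The log2 fold changes were -4.40 (Optn), 3.68 (Cyp4a10), 5.68 (Cyp4a14), 5.11 (Tmem170b) and 2.06 (Rab30). For the other falls they were -1.87 (Larp4), -1.91 (Sec22c), -3.13 (Tpm3-rs7), -3.85 (Rps3a2) and -7.16 (Gm10774). The rises of the U1 copies shrank most, to 4.67 (Gm25679) and 5.99 (Gm24305). Why the calls were lost was not tested.

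**Figure D2:**
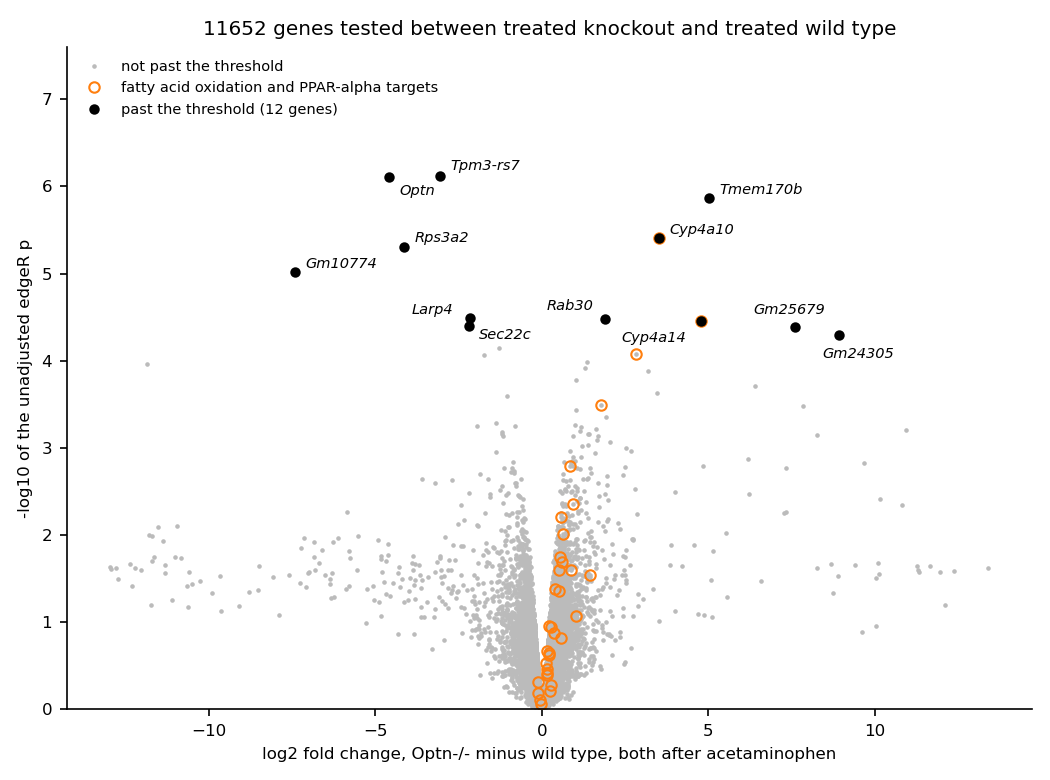
Log2 fold change of treated knockout over treated wild type (horizontal axis) against the -log10 of the unadjusted edgeR p (vertical axis) for the 11652 genes tested. Black points are the 12 genes past the adjusted threshold, and orange circles are the 33 tested genes of fatty acid oxidation, which lie mostly to the right of 0.

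Optn (ENSMUSG00000026672, GRCm38, minus strand of chromosome 2, 5020642 to 5064045) stood at 9.17 and 9.19 FPKM in wild-type replicates 1 and 4 and at 0.32 and 0.46 in knockout replicates 4 and 5. The controls were at 20.95 and 18.73. The knockouts lay far below every wild-type library, as their labels say, though 101 and 118 counts remained on the gene, and gene totals do not show on which exons. The fall was by 4.59 ± 0.21 on the log2 scale (SE, edgeR adjusted p = 0.00452). It held in 15 of the 17 alternatives that tested the gene (adjusted p from 5.38e-97 to 0.0671) and was lost in the fit that included the library set (0.0671) and without knockout replicate 4 (0.0556). Of 39 genes tested within 10 Mb of the start of Optn, only Optn passed (2.56%), and 2 (5.13%) had an unadjusted p under 0.05. The second was its neighbour Camk1d, a calcium- and calmodulin-dependent kinase, at -0.55 ± 0.16 in log2 (edgeR adjusted p = 0.511). On the rest of chromosome 2, 8.19% of 855 genes had an unadjusted p under 0.05, beside 8.81% over all genes.

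**Figure D3:**
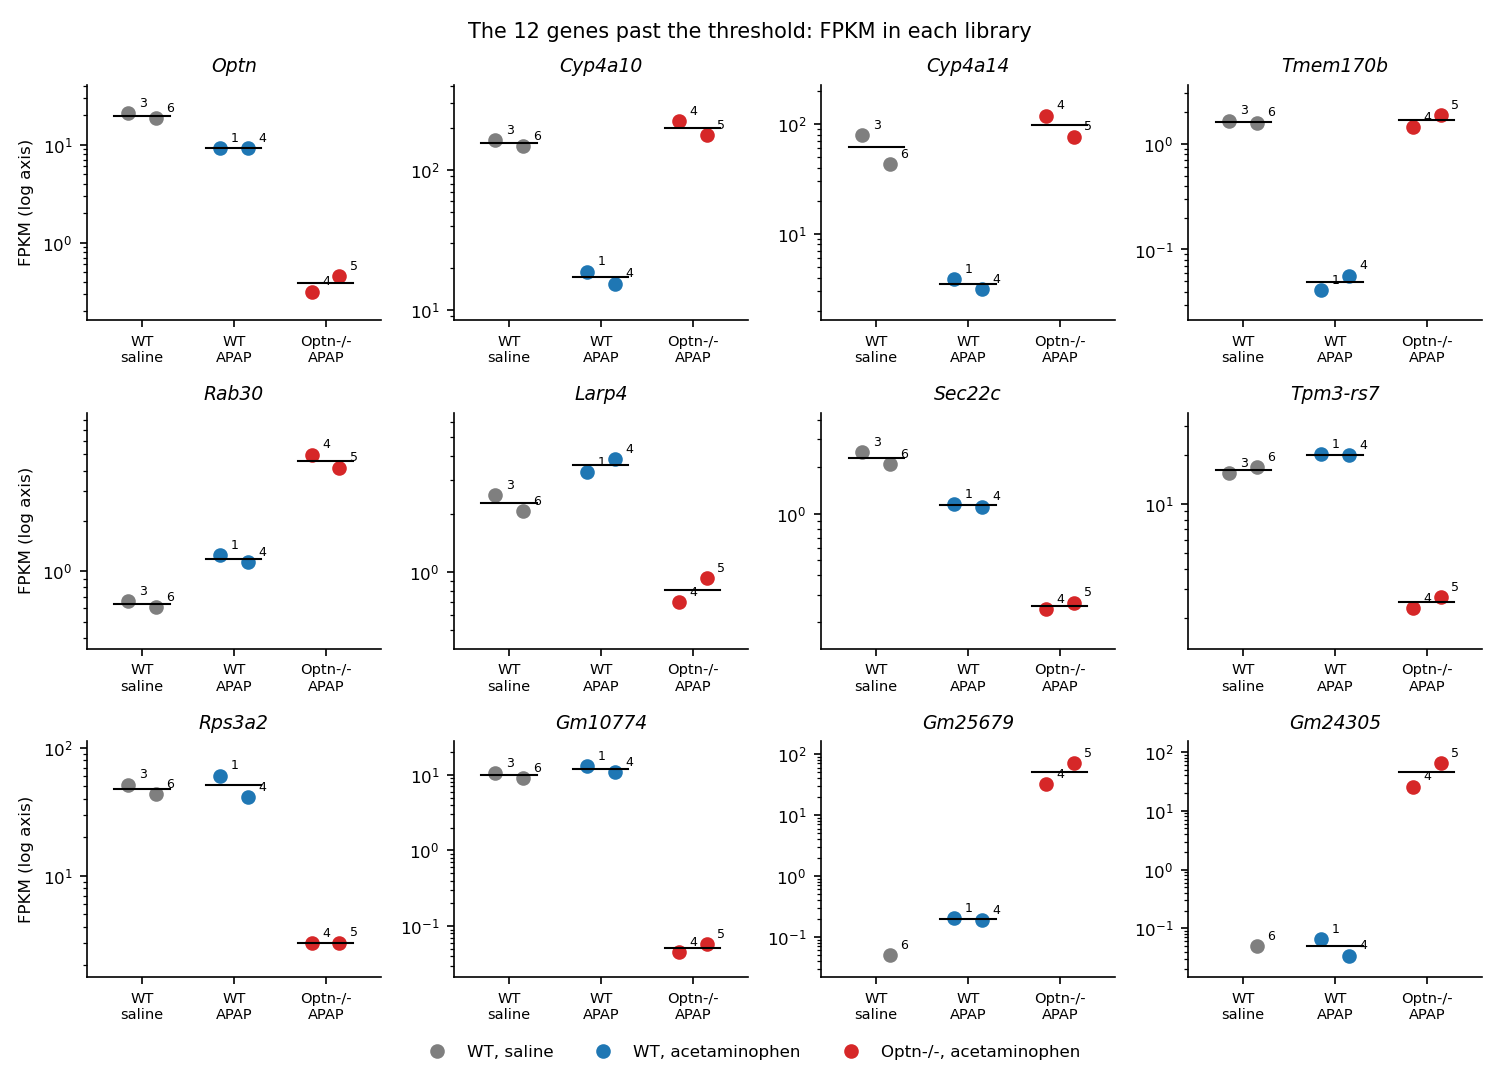
FPKM (vertical log axes) of the 12 genes past the threshold in each library, with the replicate number beside each point and a line at the mean of each group (APAP, acetaminophen). The treated groups do not overlap in any panel; Cyp4a10, Cyp4a14 and Tmem170b in the knockouts lie near the saline controls, and Gm25679 and Gm24305 had no count in control replicate 3, which has no point there.

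Among the rises were a pair of CYP4A genes. Cyp4a10 (ENSMUSG00000066072, chromosome 4, 115518264 to 115533649), which hydroxylates fatty acids at the end of the chain, stood at 18.8 and 15.4 FPKM in the treated wild types, at 223.1 and 176.4 in the knockouts and at 162.7 and 147.5 in the controls. The knockouts were above the controls and about an order of magnitude above the treated wild types. The rise was 3.51 ± 0.21 on the log2 scale (SE, edgeR adjusted p = 0.0113). It passed in 14 of 18 alternatives (adjusted p from 5.00e-56 to 0.105) and was lost when the library set was fitted and without wild-type replicate 1, wild-type replicate 4 or knockout replicate 4.

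Cyp4a14 (ENSMUSG00000028715, chromosome 4, 115486200 to 115496142), its neighbour, stood at 3.89 and 3.13 FPKM in the treated wild types and 119.1 and 76.9 in the knockouts. The controls, at 79.3 and 43.1, overlapped the knockouts. The rise was 4.77 ± 0.43 (edgeR adjusted p = 0.0432), and the gene passed in 12 of 18 alternatives (adjusted p from 1.15e-32 to 0.198, and 0.0764 with the library set fitted). Leaving out any 1 of the 4 treated libraries ended its call. Cyp4a31 had 2.59 and 2.03 FPKM in the treated wild types against 19.2 and 14.4 in the knockouts, a log2 fold change of 2.83 ± 0.29 that missed the threshold (edgeR adjusted p = 0.0667).

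These paralogs share sequence, and the sources used here do not say how reads that match several of them were divided. Cyp4a31 and Cyp4a32 are 96.1% and 97.2% identical to Cyp4a10 over the aligned part of its transcript. Summed, Cyp4a10, Cyp4a31 and Cyp4a32 gave 85.3 and 71.7 CPM in the treated wild types and 611.8 and 496.1 in the knockouts, so the knockouts were higher for the family as well. The summed rise was 2.78 (edgeR adjusted p = 0.0294, in the fit with near-identical copies summed).

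Of the 34 genes listed for fatty acid oxidation and PPAR-alpha targets, 33 were tested. Of these 2 rose, Cyp4a10 and Cyp4a14, and none fell. Without adjustment 15 had a p under 0.05, all higher in the knockouts, beside 4.93% of all genes. In 24 of the 33 the knockouts lay above the wild types without overlap (beside 21% of all genes) and in 0 below, and the list's median log2 fold change was 0.41 beside -0.0012 over all genes. The list was drawn up with earlier results of these mice known, so its direction is a description and no independent evidence.

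Vnn1, the pantetheinase vanin 1, had 3.11 and 3.09 FPKM in the treated wild types against 11.97 and 9.98 in the knockouts (log2 fold change 1.79 ± 0.24, edgeR adjusted p = 0.155). Plin2, the lipid droplet coat protein, had 102 and 92.0 against 171 and 185 (0.84 ± 0.15, edgeR adjusted p = 0.288). Ehhadh, of peroxisomal oxidation, had 32.0 and 28.9 against 66.3 and 52.2 (0.93 ± 0.21, edgeR adjusted p = 0.378). None of these passed, but in each the knockouts were wholly above the wild types. Slc25a20, the carnitine carrier of the mitochondrial inner membrane, had a value of 0.64 ± 0.17 on the log2 scale. Differences were small for Fabp1 (-0.06 ± 0.21), Acaa2 (-0.10 ± 0.13) and Cpt1a (0.13 ± 0.11), and the lowest value of the list was -0.12. Ppara itself had 5.77 and 7.01 FPKM in the wild types and 6.41 and 8.23 in the knockouts, which overlapped.

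Beside the controls, 26 of the 33 genes were lower in the treated wild types and 22 in the treated knockouts. For 19 the knockout mean lay above the treated wild-type mean without exceeding the control mean. Plin2, Pdk4 and Angptl4 instead stood above the controls in both treated genotypes. Pdk4, the kinase that holds back pyruvate dehydrogenase, had 2.57 and 1.99 FPKM in the treated wild types and 3.43 and 9.39 in the knockouts beside 0.65 and 0.40 in the controls. Between the controls, 28 of 33 genes were lower in replicate 6 than in replicate 3 (median log2 difference -0.29). Among the treated mice, library set and genotype cannot be told apart. With the set fitted, a term drawn from this control difference alone, the median was 0.64. Over all 11652 genes, 295 were higher and 278 lower at an unadjusted p under 0.05 in that fit. Apart from fits with 1 library left out, the other alternatives had between 238 of 4144 genes (minimum of 5 FPKM) and 778 of 26165 (no FPKM filter) higher. Of the list, 14 genes had such a p with the set fitted, all higher. Over the other alternatives that count lay between 10 and 15.

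Tmem170b (ENSMUSG00000087370, chromosome 13, 41605907 to 41641355), which encodes a small transmembrane protein, was nearly absent from the treated wild types. It had 0.041 and 0.057 FPKM there (23 and 33 counts), 1.44 and 1.87 in the knockouts (908 and 953 counts) and 1.66 and 1.58 in the controls. The knockouts thus stood at the level of the controls, and only the treated wild types were low. The rise of the knockouts over the treated wild types was 5.01 ± 0.25 (edgeR adjusted p = 0.00526), and it passed in 14 of 17 alternatives (adjusted p from 1.14e-56 to 0.0671), lost in the fit that included the library set and without either knockout replicate. The gene lies outside the rule for naming genes, which asks for a mean of at least 1 FPKM, and is given because it was called.

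Rab30 (ENSMUSG00000030643, chromosome 7, 92741603 to 92844535), a small GTPase of the Golgi, had 1.25 and 1.14 FPKM in the treated wild types, 4.98 and 4.17 in the knockouts and 0.66 and 0.61 in the controls. Here the knockouts were above both other groups. The rise was 1.91 ± 0.17 (edgeR adjusted p = 0.0432). The call was among the less stable, with 7 of 17 alternatives past the threshold (adjusted p from 3.35e-19 to 0.312, the highest with the library set fitted) and none of the 6 that left out a library.

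Larp4 (ENSMUSG00000023025, chromosome 15, 99970065 to 100016358), which binds poly(A) tails and stabilises messages, had 3.31 and 3.84 FPKM in the treated wild types and 0.70 and 0.93 in the knockouts, with the controls at 2.496 and 2.07. The knockouts were the lowest libraries of the series. The gene fell by 2.17 ± 0.19 (edgeR adjusted p = 0.0432) and passed in 9 of 17 alternatives (adjusted p from 2.89e-19 to 0.350, the highest with the library set fitted), lost without any 1 of the 4 treated libraries. Sec22c (ENSMUSG00000061536, chromosome 9, 121680045 to 121705490), of vesicle transport between endoplasmic reticulum and Golgi, had 1.15 and 1.11 FPKM against 0.24 and 0.27, with 2.47 and 2.09 in the controls. It fell by 2.18 ± 0.20 (edgeR adjusted p = 0.0432) and passed in 4 of 17 alternatives (adjusted p from 1.58e-17 to 0.389, the highest with the library set fitted). It too is outside the naming rule because its mean was under 1 FPKM, and the call was lost without any 1 of the 6 libraries.

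The other 3 falls were entries that are nearly the same as another gene, and their sequences show why they have to be read with that gene. Tpm3-rs7 (chromosome 14, 113314608 to 113316754, plus strand) is an intronless relative of Tpm3 (chromosome 3, 90072649 to 90100902), a tropomyosin of the actin cytoskeleton. It matches the 747 coding bases of Tpm3 with 3 differences (A140G, A166G and A195G, counted from the first base of the Tpm3-rs7 transcript, with the base of Tpm3-rs7 first). Rps3a2 (chromosome 14, 88123017 to 88123808, minus strand) is a processed pseudogene of the ribosomal protein gene Rps3a1 (chromosome 3, 86137940 to 86142702), with 4 differences over 792 bases. Gm10774 (chromosome 2, 126709354 to 126709557, minus strand) is one of Polr2l (chromosome 7, 141471860 to 141475132), which encodes a small subunit shared by RNA polymerases, with 1 difference (A82G, counted from the first base of Gm10774) over 204 bases. Stretches of each pair follow, read 5′ to 3′ from the GENCODE M21 transcripts (GRCm38), with the differing bases in capitals.
Tpm3-rs7: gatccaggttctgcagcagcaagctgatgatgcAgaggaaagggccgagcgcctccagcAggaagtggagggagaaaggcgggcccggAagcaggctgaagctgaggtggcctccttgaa
Tpm3: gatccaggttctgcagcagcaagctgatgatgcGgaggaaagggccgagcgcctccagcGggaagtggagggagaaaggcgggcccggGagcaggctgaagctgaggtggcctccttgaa
Rps3a2: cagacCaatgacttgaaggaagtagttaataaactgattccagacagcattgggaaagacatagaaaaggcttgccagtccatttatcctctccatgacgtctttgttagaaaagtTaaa
Rps3a1: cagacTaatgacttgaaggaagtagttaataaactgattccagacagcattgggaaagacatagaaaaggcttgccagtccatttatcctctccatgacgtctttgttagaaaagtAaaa
Gm10774: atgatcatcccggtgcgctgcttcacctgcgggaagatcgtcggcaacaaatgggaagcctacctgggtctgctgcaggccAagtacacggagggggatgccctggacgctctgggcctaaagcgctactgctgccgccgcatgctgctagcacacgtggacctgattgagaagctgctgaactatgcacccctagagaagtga
Polr2l: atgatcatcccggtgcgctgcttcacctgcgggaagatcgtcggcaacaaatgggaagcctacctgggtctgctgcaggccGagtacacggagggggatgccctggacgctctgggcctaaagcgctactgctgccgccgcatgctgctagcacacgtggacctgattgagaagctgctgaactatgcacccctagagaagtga

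Tpm3-rs7 had 20.3 and 19.9 FPKM in the treated wild types and 2.303 and 2.69 in the knockouts, with 15.5 and 16.8 in the controls. Tpm3 had the opposite pattern, with 1.13 and 3.02 FPKM against 11.499 and 12.6. On its own Tpm3-rs7 fell by 3.04 ± 0.14 (edgeR adjusted p = 0.00452). The call was lost without knockout replicate 4 and with the library set fitted (0.0671), over alternatives with adjusted p from 8.42e-91 to 0.527. Summed with Tpm3, the pair gave 54.9 and 66.3 CPM in the wild types and 81.5 and 90.0 in the knockouts, a log2 fold change of 0.47 in the other direction (edgeR adjusted p = 0.527). For the pair summed, the knockouts were the higher libraries.

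Rps3a2 had 60.6 and 41.2 FPKM in the treated wild types and 2.99 and 3.001 in the knockouts. It fell by 4.12 ± 0.26 (edgeR adjusted p = 0.0115). The call was lost without either knockout and with the library set fitted (0.114), over alternatives with adjusted p from 4.38e-46 to 0.953. Rps3a1 held 234 and 203 FPKM against 256 and 277, and the sum of Rps3a2 with its 6 near-identical copies was 324.7 and 260.8 CPM in the wild types and 280.7 and 302.7 in the knockouts. These sums overlapped (log2 fold change -0.05, edgeR adjusted p = 0.953). Gm10774 held 190 and 171 counts in the wild types and 1 count in each knockout, a ratio of 184 (95% interval 50.6 to 1527, exact, counting error only; edgeR adjusted p = 0.0189). The call was lost without any 1 of the treated libraries and with the library set fitted (0.114), over alternatives with adjusted p from 3.27e-09 to 0.532. With Polr2l and Gm13015 the sum was 37.1 and 40.2 CPM against 32.0 and 29.1 (-0.37, edgeR adjusted p = 0.532), so the knockouts were lower by a far smaller amount. The parent gene held most of the sum in the treated libraries of both genotypes for Rps3a1 and Polr2l, whereas for Tpm3 it did so only in the knockouts.

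**Figure D4:**
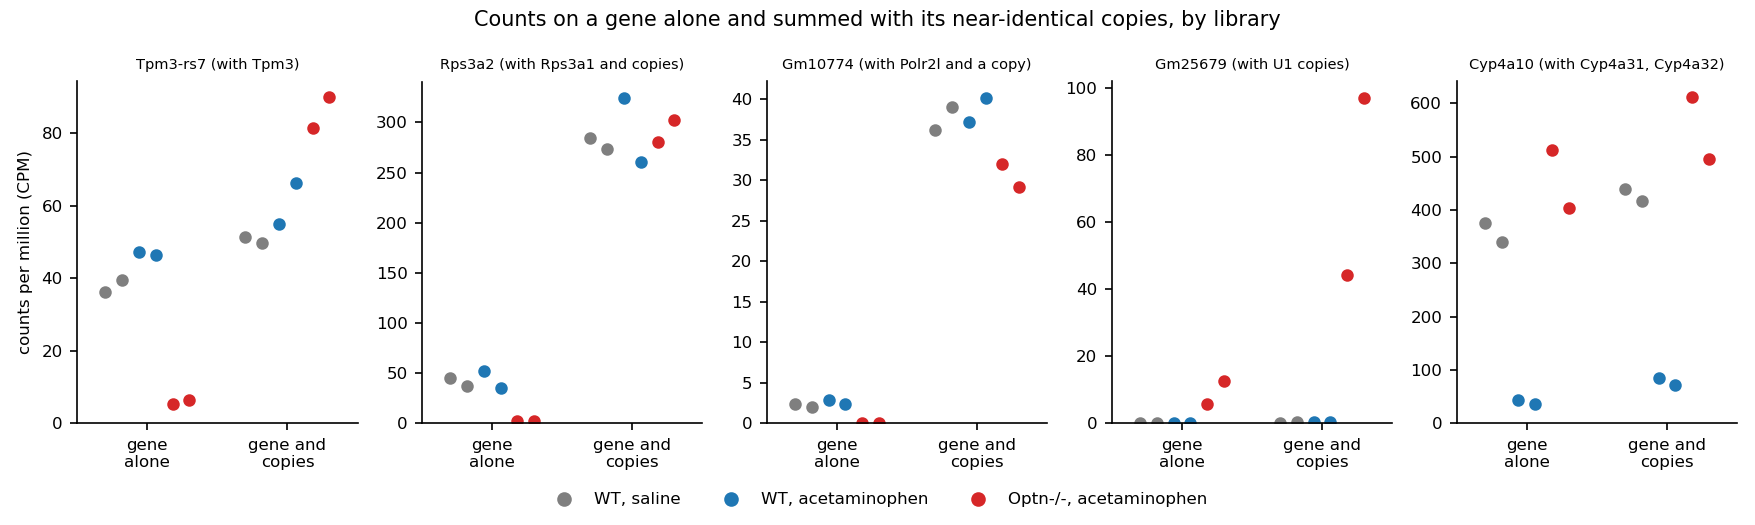
CPM (vertical axes, each from 0) of 5 genes past the threshold, alone and summed with their near-identical copies, in the 6 libraries. The knockouts are lowest for Tpm3-rs7, Rps3a2 and Gm10774 alone, whereas with copies they are highest for Tpm3-rs7, in the middle of the range for Rps3a2 and lowest by a smaller margin for Gm10774; for the U1 copies and Cyp4a10 they are highest in both.

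The remaining rises, Gm25679 (chromosome 12, 54719163 to 54719326, minus strand) and Gm24305 (chromosome 12, 54734555 to 54734718, minus strand), are copies of U1, the small nuclear RNA that recognises the start of introns during splicing. They differ by 1 base (A26G, counted from the first base, with the base of Gm25679 first), which is in capitals below.
Gm25679: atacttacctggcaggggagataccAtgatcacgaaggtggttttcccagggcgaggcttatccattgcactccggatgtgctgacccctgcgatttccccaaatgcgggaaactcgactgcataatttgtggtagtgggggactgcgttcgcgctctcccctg
Gm24305: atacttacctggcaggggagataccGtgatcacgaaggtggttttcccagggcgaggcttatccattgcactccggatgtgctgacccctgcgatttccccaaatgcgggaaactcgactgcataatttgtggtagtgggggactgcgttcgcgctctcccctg

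Gm25679 had 3 counts in each treated wild type and 441 and 785 in the knockouts, a ratio of 200.2 (95% interval 91.7 to 547, exact, counting error only; edgeR adjusted p = 0.0432). Gm24305 had 1 count in each treated wild type and 357 and 728 in the knockouts, a ratio of 532 (147 to 4395; edgeR adjusted p = 0.0489). Over the family of 27 U1 entries, 16 of them with counts, the sum was 0.47 and 0.51 CPM in the treated wild types and 44.2 and 97.1 in the knockouts. The controls had 0 and 0.26, so the knockouts stood apart from all 4 wild-type libraries, and the summed family differed by 7.13 on the log2 scale without passing (edgeR adjusted p = 0.129). Both calls were also lost when the library set was fitted and without any 1 of the 4 treated libraries, over alternatives with adjusted p from 1.04e-17 (Gm25679) and 3.78e-11 (Gm24305) to 0.999987. U1 ordinarily has no poly(A) tail, whereas the libraries were made from poly(A)-selected RNA (labels' protocols). Other small nuclear RNAs summed to 2.68 and 2.48 CPM in the treated wild types against 5.86 and 10.6 in the knockouts. Small nucleolar RNAs summed to 16.4 and 16.6 against 25.2 and 30.1. The messages of replication histones also lack poly(A). The 9 such genes found by symbol (Hist1 and Hist2) summed to 2.03 and 1.91 against 4.55 and 3.73. The part of these RNA classes in the U1 result was not tested.

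A further 8 genes had an adjusted p between 0.05 and 0.1. Under the naming rule these give Pts, of tetrahydrobiopterin synthesis, with 0.805 and 0.895 FPKM in the treated wild types and 2.12 and 2.42 in the knockouts (log2 fold change 1.37 ± 0.15, edgeR adjusted p = 0.0748), beside Cyp4a31 above. On the lower side they give Thrsp, a thyroid hormone-responsive regulator of lipid synthesis, and the kinase gene Snrk. Thrsp had 386 and 425 FPKM in the treated wild types against 162 and 177 in the knockouts and 165 and 193 in the controls (-1.29 ± 0.13, edgeR adjusted p = 0.0643). Its knockout level was thus that of the controls, with only the treated wild types high. Snrk had 3.64 and 4.33 against 1.37 and 1.07 (-1.73 ± 0.18, edgeR adjusted p = 0.0667), and next in order came Slco1a1, a bile acid and organic anion transporter, with 26.9 and 27.9 against 13.1 and 14.1 (-1.04 ± 0.13, edgeR adjusted p = 0.129). Of the others, chosen after their values were seen, Retsat, a retinol saturase, had 44.4 and 39.5 FPKM against 111 and 99.9 (1.29 ± 0.14, edgeR adjusted p = 0.0784), and Krt18, a keratin of hepatocytes and bile duct cells, had 279 and 266 against 541 and 606 (1.04 ± 0.12, edgeR adjusted p = 0.0964). The controls had 115 and 118 FPKM of Krt18, close to each other and below both treated groups. The entry Gm42878 had 412 and 466 counts in the treated wild types and none in the knockouts or the controls, at least 299-fold higher in the wild types against a floor of 3 counts over the knockout group, and Gm46620 (3.20 ± 0.36, edgeR adjusted p = 0.0803) is a long noncoding RNA.

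No autophagy gene other than Optn passed the threshold. Among 23 selective autophagy and mitophagy receptors, none passed, none had an unadjusted p under 0.05, and the median log2 fold change was -0.07. In 11 of them the knockouts lay below the wild types without overlap (against 19.1% of all genes) and in 1 above. Sqstm1, encoding the receptor p62, had 273 and 361 FPKM in the treated wild types and 339 and 357 in the knockouts (0.10 ± 0.15, edgeR adjusted p = 0.874). Calcoco1 had 3.62 and 3.70 against 3.86 and 3.67 (0.01 ± 0.13), Tax1bp1, a receptor related to optineurin in function, 9.58 and 9.53 against 8.23 and 9.43 (-0.15 ± 0.12), and Pink1, the kinase that marks damaged mitochondria, 62.5 and 55.5 against 61.5 and 53.3 (-0.07 ± 0.15). For Sqstm1, Calcoco1 and Pink1 the groups overlapped, and for Tax1bp1 the knockouts lay just below. Nipsnap3b (-0.30 ± 0.13), Bnip3l (-0.24 ± 0.11) and Tollip (-0.25 ± 0.12) had the smallest p of the list.

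Of 34 core autophagy genes none passed, and the median was -0.12. At an unadjusted p under 0.05, 1 was higher and 1 lower, beside 4.93% and 3.89% of all genes. Map1lc3b, which encodes the LC3 protein to which optineurin binds, had 14.03 and 15.01 FPKM in the treated wild types against 24.8 and 24.0 in the knockouts (0.71 ± 0.26, edgeR adjusted p = 0.525). The 2 controls, at 15.04 and 8.90, differed by as much as the treated groups, with the lower value in the library that shares the knockouts' traces. Atg4c, an LC3-processing protease, had -0.59 ± 0.23. Gabarapl1, an LC3 relative, had 190 and 162 FPKM against 120 and 37.4, so the knockouts themselves differed over 3-fold.

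Among 17 partners of optineurin and genes of TBK1 signalling none passed, and the median was 0.01. Tbk1 had 5.61 and 5.57 FPKM in the treated wild types and 3.82 and 7.75 in the knockouts, on either side of the wild types. Tfrc, the transferrin receptor whose recycling optineurin aids, had 3.42 and 2.51 against 4.92 and 5.95 (0.83 ± 0.22, edgeR adjusted p = 0.479), and Azi2, an adaptor of TBK1, 3.82 and 3.42 against 2.22 and 2.82 (-0.56 ± 0.16, edgeR adjusted p = 0.511). No gene of 30 in the lysosome list (median -0.02) and none of 12 in mitochondrial fission and fusion (median 0.00) had an unadjusted p under 0.05. Without overlap, 10 lysosome genes were higher and 3 lower, and 0 fission and fusion genes were higher and 4 lower. Over all genes these shares were 21% and 19.1%.

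No mitochondrial gene passed either, and most differences were small. Of 44 nuclear-encoded respiratory chain genes none passed and the median was -0.10, with log2 fold changes between -0.35 and 0.41. The 13 genes of the mitochondrial genome had a median of 0.17, and 2 of them, mt-Nd5 and mt-Atp8, were higher in both knockouts (0.39 ± 0.20 and 0.36 ± 0.19), a share no larger than the 21% of all genes. Among 22 mitochondrial chaperones and proteases Esrra, a nuclear receptor that drives mitochondrial genes, had 0.40 ± 0.13 and the chaperonin Hspe1 -0.42 ± 0.16, and neither passed. Of 12 mitochondrial redox genes, Gsr, glutathione reductase, had 0.46 ± 0.14 and Idh2 -0.41 ± 0.14.

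Genes of pericentral hepatocytes, the zone in which acetaminophen is activated, were lower in the knockouts in most cases but none passed. Of 16 tested, 8 were lower at an unadjusted p under 0.05 (beside 3.89% of all genes) and 1, Rnf43, was higher. In 10 the groups did not overlap with the knockouts lower (beside 19.1% of all genes), and the median log2 fold change was -0.67. Cyp2a5, a coumarin hydroxylase, had 95.8 and 143 FPKM in the treated wild types against 27.9 and 34.8 in the knockouts (-1.96 ± 0.29, edgeR adjusted p = 0.198), below controls at 651 and 419. Lect2, a secreted protein and Wnt target, had 47.3 and 67.6 against 27.5 and 25.5 (-1.14 ± 0.21, edgeR adjusted p = 0.288). Slc1a4, an amino acid transporter, had 2.27 and 2.42 against 1.25 and 1.03 (-1.07 ± 0.23, edgeR adjusted p = 0.345). Its controls, at 0.77 and 0.97, were below both treated groups. Most of the list differed from this, as 13 of the 16 were below the control mean in the treated wild types and 15 in the knockouts. Glul, glutamine synthetase and the textbook marker of the zone, overlapped at 59.7 and 95.0004 against 64.8 and 50.6.

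Cyp2e1, the main enzyme that activates acetaminophen, stood at 1299 and 1790 FPKM in the treated wild types and 1106 and 976 in the knockouts (-0.60 ± 0.19, edgeR adjusted p = 0.512), with the controls at 3293 and 2941. Cyp1a2 had 136 and 261 against 82.1 and 90.5 (-1.23 ± 0.36) and Cyp3a11 421 and 502 against 165 and 321 (-0.96 ± 0.30). Of 13 bioactivation genes, several of them also on the pericentral list, 5 were lower at an unadjusted p under 0.05, beside 3.89% of all genes. None was higher at such a p, none passed the threshold, and the median was -0.21. These pericentral values depended on the library. Without wild-type replicate 4, the library with neural traces, the median of the 16 pericentral genes was -0.31 rather than -0.67. Once the library set entered the fit the median was -0.40, and 2 rather than 8 were lower at an unadjusted p under 0.05. Over all 11652 genes the lower count fell as well in that fit, from 453 to 278. In bulk liver, fewer cells of a type and less RNA per cell cannot be told apart.

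Conjugation and bile acid genes held a few larger differences, all short of the threshold. Of 28 genes of glucuronidation, sulfation and glutathione conjugation 5 were lower and 2 higher at an unadjusted p under 0.05, with a median of -0.28. Over all genes 3.89% were lower and 4.93% higher at such a p. Sult1b1, a sulfotransferase, had 7.53 and 6.61 FPKM in the treated wild types against 3.69 and 4.38 in the knockouts (-0.85 ± 0.16, edgeR adjusted p = 0.301). Gsta3, a glutathione S-transferase, had -0.77 ± 0.15, and Ugt1a9, a glucuronosyltransferase whose gene shares exons with its neighbours, 1.26 ± 0.26. Of 21 bile acid genes 5 were lower and 2 higher, to be read beside the same shares, with a median of -0.18. Cyp7a1, whose enzyme sets the rate at which bile acids are made, had 3.34 and 2.71 FPKM against 1.38 and 1.31 (-1.20 ± 0.19, edgeR adjusted p = 0.198), both far below the controls at 23.3 and 29.7. Among 23 NRF2 targets and glutathione genes the median was 0.13; Nfe2l2, which encodes NRF2, had 0.40 ± 0.14 and Nqo1 -0.82 ± 0.33. Gclc (0.17 ± 0.38) and Hmox1 (0.09 ± 0.43) overlapped between the genotypes.

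**Figure D5:**
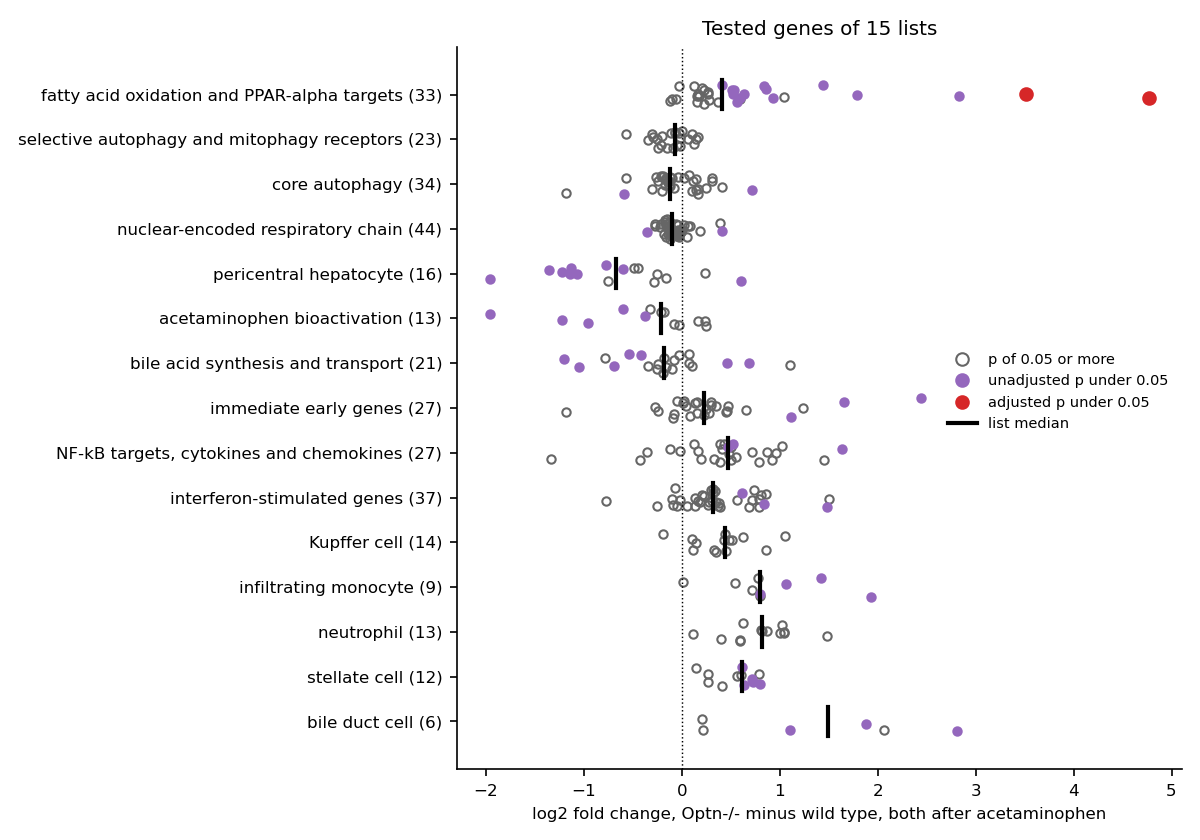
Log2 fold change of treated knockout over treated wild type (horizontal axis) for each tested gene of 15 lists, with the number tested in brackets and the dotted line at the median of all genes. Red points passed the threshold (Cyp4a10 and Cyp4a14), purple points had an unadjusted p under 0.05, and black bars are list medians, from -0.67 for pericentral genes to 1.49 for 6 bile duct genes.

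Markers of cells other than hepatocytes were mostly higher in the knockouts, again with none past the threshold, and for most of these lists the same markers divided the controls. Over all genes 4.93% were higher at an unadjusted p under 0.05, 21% were higher without overlap and 19.1% lower, and the counts below are to be read beside these shares. Of 9 monocyte markers 4 were higher at an unadjusted p under 0.05 and 8 did not overlap, with a median of 0.80. Ccr2, F13a1 and Itgam were below 0.5 FPKM in both treated wild types and reached the minimum only through the knockouts. Ccr2 and F13a1 are among the 4, so the minimum itself tilts these counts toward the knockouts. Chil3, a chitinase-like protein of monocytes and macrophages, had 1.73 and 1.40 FPKM in the treated wild types against 5.78 and 6.57 in the knockouts (1.93 ± 0.27, edgeR adjusted p = 0.189), and Ccr2, the receptor for CCL2, 0.41 and 0.34 against 0.63 and 0.72. In control replicate 6, which shares the knockouts' traces, 8 of the 9 were above control replicate 3 (median log2 difference 0.88). With the library set fitted the median became -0.12.

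The same was seen for 13 neutrophil markers, whose median was 0.82 with 10 not overlapping and none at an unadjusted p under 0.05, where control replicate 6 exceeded control replicate 3 by a median of 0.91 and the median became -0.54 when the library set was fitted. S100a8, an abundant neutrophil protein, overlapped at 38.0 and 14.7 FPKM against 36.0 and 46.3 (0.59 ± 0.44). Ly6g, at 0.36 and 0.44 FPKM in the treated wild types against 1.18 and 1.15, reached the minimum only through the knockouts. Of 14 Kupffer cell markers 6 did not overlap and were higher (median 0.44), and between the controls they differed by a median of 1.31, with a median of -0.92 for the genotypes once the library set was fitted. The 12 stellate cell markers, among them Dcn (0.73 ± 0.20), Ecm1 (0.80 ± 0.23) and the contractile-cell gene Rgs5 (0.72 ± 0.19), had a median of 0.61, with 5 at an unadjusted p under 0.05 and a difference of 0.42 between the controls, and 0 once the library set entered the fit. Of 14 sinusoidal endothelial markers, among them the scavenger receptor Stab1 (0.89 ± 0.28) and Fcgr2b (0.70 ± 0.22), all were higher in control replicate 6 than in control replicate 3, and their median between the genotypes went from 0.23 to -0.51 with the set fitted. Markers of platelets and of T, NK and B cells did not divide the controls in this way. The 5 platelet markers had a median of 0.67 with 3 higher without overlap. Between the controls their median difference was 0.017, with 3 higher and 2 lower in replicate 6, and with the set fitted the median was 0.55. Gp9, one of the 3 without overlap, lay near the minimum in the treated wild types, at 0.56 and 0.38 FPKM against 1.41 and 1.53. Its controls were at 0 and 0.21 FPKM, a log2 difference of 1.55. The 10 lymphocyte markers had a median of 0.28 with 6 higher without overlap, -0.04 between the controls and 0.40 with the set fitted. They are those tested of 20 listed. Trbc1 and Nkg7, the 2 with an unadjusted p under 0.05, were below 0.5 FPKM in both treated wild types. Both reached the minimum only through the knockouts, and Trac (-0.61 ± 0.72) and Trbc2 (-0.06 ± 0.44) went the other way.

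Bile duct markers had the highest median of the pathway and cell type lists, 1.49 over 6 tested genes. Of these Krt19 and Cldn7 were below 0.5 FPKM in both treated wild types and reached the minimum only through the knockouts. Krt19, a keratin of bile duct and intestinal epithelium, had 0.36 and 0.47 FPKM in the treated wild types against 2.36 and 3.65 in the knockouts (2.81 ± 0.58, edgeR adjusted p = 0.339). Epcam, an adhesion protein of both epithelia, had 0.54 and 0.65 against 1.44 and 3.06 (1.88 ± 0.59, edgeR adjusted p = 0.511), and the ductal transcription factor Sox9 5.34 and 2.94 against 9.53 and 8.75 (1.10 ± 0.32). In the controls Krt19 had 0.90 and 2.63 and Epcam 0.47 and 1.28, higher in the library with intestinal traces, while Sox9 had 0.38 and 0.52. The part of the intestinal traces in these values was not tested, and in the fit that included the library set the median of the list was 0.58. Of 13 hepatocyte markers 8 were lower without overlap (beside 19.1% of all genes), none higher, and the median was -0.14, or -0.22 with the library set fitted.

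No early response or inflammatory gene passed. Of 27 immediate early genes 3 were higher at an unadjusted p under 0.05 (beside 4.93% of all genes) and none lower, with a median of 0.22. Dusp5, a phosphatase that turns off ERK, had 3.04 and 4.93 FPKM in the treated wild types against 12.5 and 13.1 in the knockouts (1.65 ± 0.26, edgeR adjusted p = 0.217), and the controls held 0.12 and 0.17. Ier3 had 1.11 ± 0.33 and Fosl1, a member of the AP-1 factors, 2.44 ± 0.69. Among 27 NF-kB targets, cytokines and chemokines 10 were higher without overlap (beside 21% of all genes) and none lower. Their median was 0.47, beside 0.45 between the controls and -0.03 with the library set fitted. Nfkbia, the inhibitor of NF-kB, had 19.5 and 18.8 FPKM against 27.2 in both knockouts (0.47 ± 0.13, edgeR adjusted p = 0.502), and Nfkb1 0.52 ± 0.14. Ccl2, a chemokine for monocytes, had 4.14 and 1.30 against 6.37 and 9.17 (1.46 ± 1.005), and Cxcl1, for neutrophils, overlapped at 18.0 and 55.7 against 25.7 and 30.1.

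Among 23 genes of apoptosis and necroptosis 3 were higher at an unadjusted p under 0.05, beside 4.93% of all genes. Cflar, the inhibitor of caspase 8, had 0.72 and 1.22 FPKM in the treated wild types against 2.996 and 3.44 in the knockouts (1.704 ± 0.26, edgeR adjusted p = 0.198), with 4.18 and 5.52 in the controls. As in Cyp4a10 and Tmem170b, the treated wild types were the low libraries. Casp8 itself had 0.34 ± 0.12 and Birc3, another inhibitor of cell death, 0.72 ± 0.29. Ripk3, the kinase of necroptosis, had 0.73 and 0.60 against 1.40 and 1.14 (0.89 ± 0.44), and 0.29 and 0.57 in the controls. Of 37 interferon-stimulated genes 14 were higher without overlap and 2 lower, beside 21% and 19.1% of all genes (median 0.32, and -0.05 with the library set fitted), among them Oas1a with 1.98 and 2.03 against 5.83 and 5.63 (1.48 ± 0.28, edgeR adjusted p = 0.302), and between the controls the list differed by 0.40.

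For 3 further genes taken as reference points the treated genotypes overlapped. Atf3, a transcription factor of the stress response, had 160 and 171 FPKM in the treated wild types and 172 and 152 in the knockouts (-0.07 ± 0.14), far above the controls at 0.925 and 0.793. Cdkn1a, the p53 target that halts the cell cycle, had 43.4 and 29.6 against 36.4 and 41.4 (0.05 ± 0.49). Saa1, an acute phase protein, had 545 and 774 against 2142 and 371, so the knockouts lay on either side of the wild types.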

How the data were processed

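RNA from mouse liver was poly(A)-selected and sequenced in pairs, per the labels' protocols, whose text also speaks of adipose tissue. The authors deposited 1 table of raw counts and FPKM values per gene, and the submitters' processing notes name Bowtie 0.12.2 and the build mm8. The coordinates in the table are GRCm38: 51991 of 55144 genes (94.3%) have exactly those of GENCODE M21. The sources used here do not say how reads matching several genes, or strands, were counted.

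The deposited counts were tested with edgeR 4.0.16 (quasi-likelihood, TMM scaling, all 6 libraries, 3 group means, 3 residual degrees of freedom, Benjamini-Hochberg, threshold 0.05), on genes with a mean deposited FPKM of at least 0.5 in the 4 treated libraries, and the test was checked on simulated data. Replicates are separate animals, 2 per group, so an exact permutation test cannot go below 0.333 and none was used. Where a group held few counts, the ratio is given with an exact 95% interval, for counting error only. No replicate pair lay within sampling noise (mean chi-square per gene 116 to 294). Alternatives used DESeq2 1.42.0, limma 3.58.1 on log2(FPKM + 0.1, 0.5 or 1), other scalings, filters and library choices. Near-identical copies (95% identity over 50% of a transcript, blastn 2.17.0) were summed in an alternative chosen after seeing the data.

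Named genes were Optn, then up to 20 rises and 20 falls past the threshold without overlap of the groups and with a mean of at least 1 FPKM, leaving out predicted genes, pseudogenes and trace genes, filled up to 5 a direction by the smallest p, plus up to 3 members per list and fixed anchor genes. All 1110 listed symbols matched the table, 7 by synonym. The members, lists and comparison were chosen with earlier results of these data known. Some members of the lists are not reported here by name.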

Additional observations from a re-analysis of the deposited data

How the results depend on the processing

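Against 6 rises and 6 falls, DESeq2 called 195 and 132, limma 18 rises (pseudocount 0.5), 10 (0.1) and 21 (1), and no FPKM filter gave 10 rises. The 4 treated libraries alone gave 14 and 10, the library set as a term 1 and 0, and summed near-identical copies, an alternative chosen after seeing the data, 2 and 1 (Optn, Cyp4a10 and Tmem170b). Leaving out 1 library gave 0 to 15 rises and 1 to 10 falls. All 12 genes were kept under RLE scaling, DESeq2, no filter and other-tissue genes left out, 8 under total count scaling. List members past the threshold, 2 in the report, were 39 (DESeq2), 4 and 5 (limma with 0.5 and 1), 4 (no filter), 4 (minimum of 5 FPKM), 1 (library set as a term), 1 (copies summed) and 0 to 3 with 1 library left out. Tpm3-rs7 reversed to 0.47 with copies summed, because Tpm3 was added. For other changes the cause was not tested. Of the other values of single genes under an alternative, 477 kept direction and side of the threshold, 71 lost it and 16 gained it. No paired analysis was possible because the treated groups share only replicate number 4. Genes with few counts, such as the U1 copies in wild types, are limited by depth.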

Other observations

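Other metabolic lists held no gene past the threshold, and their leading members are given as values (edgeR's quasi-likelihood test, Benjamini-Hochberg). In lipogenesis Cidec, which fuses lipid droplets, had 3.78 and 3.52 FPKM in the treated wild types against 15.9 and 13.4 in the knockouts (log2 fold change 1.97 ± 0.38, adjusted p = 0.308), beside 1.40 and 0.63 in the controls. Of 22 genes of glucose and glycogen metabolism 4 were lower at an unadjusted p under 0.05 (beside 3.89% of all genes) and none higher (median -0.12). Among them Pklr, liver pyruvate kinase, had 20.7 and 24.5 against 15.5 and 13.8 (-0.66 ± 0.14, adjusted p = 0.349). Of 25 amino acid and urea genes 12 were lower without overlap and 1 higher, beside 19.1% and 21% of all genes (median -0.21), with Prodh, proline dehydrogenase, at 14.3 and 15.5 against 10.99 and 9.60 (-0.56 ± 0.13, adjusted p = 0.421) and Ass1, of the urea cycle, at 1472 and 1500 against 998 and 1192 (-0.47 ± 0.15).

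Among 16 clock genes Per1 had 8.13 and 8.96 FPKM in the treated wild types against 12.02 and 14.7 in the knockouts (0.61 ± 0.15, adjusted p = 0.457), and Per2 1.25 and 1.92 against 2.77 and 2.96 (0.83 ± 0.21, adjusted p = 0.465). The hour of dosing is not in the labels. None of 25 genes of the integrated stress and unfolded protein response had an unadjusted p under 0.05 (median -0.12), and Mdm2, the p53 target that restrains p53, had 7.28 and 7.89 against 9.82 and 12.04 (0.49 ± 0.13, adjusted p = 0.502). The Nnt entry called with the library set as a term had 0 FPKM in control replicate 6 and between 16.4 and 22.1 in the other 5 libraries. In all 4 treated libraries the Nnt values lay close together, at 16.5 and 16.4 in the wild types and 17.4 and 18.6 in the knockouts.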
